A study of Arabidopsis thaliana with 15 samples.

Results

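AT4G15690, AT4G15700 and AT3G62950 encode CC-type glutaredoxins. They were followed here through 48 h of leaf-disk culture in a medium used to induce xylem, the plant tissue that carries water. They are 3 of the 22746 probe sets of the array that are not controls, and 3 of the 17 CC-type glutaredoxin genes that could be paired with a probe set. Each has 1 probe set, found through its locus. All 3 were picked because they lay among the lowest changes against 0 h in these same arrays, so their fall from 0 h is a description here and carries no test.

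Glutaredoxins are small oxidoreductases that use glutathione to reduce disulfides or to remove glutathione from other proteins. The CC-type class, also called ROXY after one of its members, has neighbouring cysteines in the active site and is found in land plants only. Its proteins are known to bind TGA transcription factors and to act as regulators of transcription in flower development, in defence and in nitrogen signalling, and several family genes respond to nitrate and to cytokinin.

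The starting material was rosette leaves of Arabidopsis thaliana Col-0 seedlings aged 25 days, from which disks 1 mm across were taken. The disks were cultured with 1.25 mg/L of the auxin 2,4-D, 0.25 mg/L of the cytokinin kinetin and 10 µM of bikinin, an inhibitor of GSK3 kinases. The groups are 0, 12, 24, 36 and 48 h of culture, and 3 arrays per group make 15. Ecotype, plant age and tissue were the same in all 5 groups, and no disks cultured without the 3 compounds are in the series, so effects of the compounds, of cutting and of time in culture cannot be told apart. The titles number the replicates without saying that they were separate cultures, so the p-values here cover only the variation among these arrays, possibly technical in origin, and the number of arrays limits the precision.

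Signals are MAS5 intensities on a linear scale, and 17829 probe sets passed a filter that asks for a mean of at least 30.7 at 1 or more times. The median signal of the arrays ranged from 121.8 to 169.9, and the correlation between 2 arrays of one time was 0.886 to 0.954, against 0.562 to 0.707 for a 0 h array and a later one. For the leaf label only 1 of 10 listed mesophyll markers could be looked up. This was LHCB4.2, a gene for a light-harvesting protein, with 18524 to 37628 at 0 h and 151.4 to 352 at 48 h. Its high signal at 0 h goes with green tissue, and 1 gene is a limited check of the label. In bulk disks, fewer cells of a type and less RNA per cell cannot be told apart.

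AT4G15690 was high in fresh disks and near the bottom of the scale in most cultured ones. Its signals on the 3 arrays of each time were 982, 1299.7 and 883 at 0 h, 18.0, 1.27 and 0.93 at 12 h, 43.8, 1.28 and 1.15 at 24 h, 2.07, 1.58 and 0.71 at 36 h, and 24.0, 0.42 and 0.63 at 48 h. All 12 later arrays lay below all 3 of 0 h, and the lowest 0 h array was 20.1 times the highest later one. At each of 12, 24 and 48 h the first array carried nearly all of the signal left, and 11 of the 12 later arrays lay under the filter's cutoff.

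AT4G15700, the next locus on chromosome 4, was also high in fresh disks and low in every cultured sample. Its signals were 966, 1224 and 1074 at 0 h, 17.8, 7.26 and 10.7 at 12 h, 25.8, 21.5 and 0.41 at 24 h, 4.83, 0.39 and 1.15 at 36 h, and 1.65, 6.14 and 4.29 at 48 h. The later arrays did not overlap with those of 0 h, and all 12 lay under the cutoff. The arrays within 24 h differed far more from each other than those within 0 h did.

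AT3G62950, on chromosome 3, had low signals on every later array, and its changes had the smallest standard error of the 3 genes. Its signals were 240.1, 84.0 and 244 at 0 h, 0.88, 1.03 and 1.59 at 12 h, 0.84, 0.82 and 0.63 at 24 h, 0.44, 1.01 and 1.08 at 36 h, and 2.39, 1.39 and 0.55 at 48 h. No later array exceeded 2.39, and the second array of 0 h was low among the 3 of its time.

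**Figure D1:**
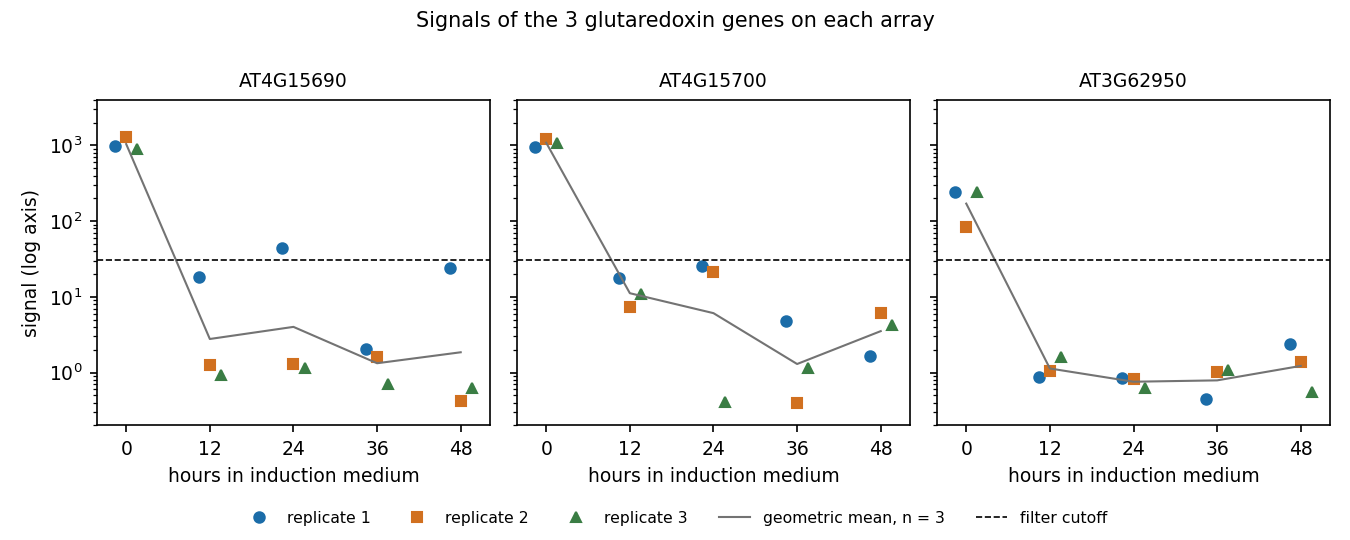
Signal (log axis) of AT4G15690, AT4G15700 and AT3G62950 on each of the 15 arrays against hours in induction medium; symbols mark replicates (the third array of 36 h has no number in its title), lines join geometric means of 3 arrays and the dashed line is the filter's cutoff of 30.7. All 3 genes lie above the line at 0 h, and of the 36 later values only 1, AT4G15690 at 24 h with 43.8, lies above it.

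The log2 changes in the limma fit over all 15 arrays describe the same fall (± standard error, n = 3 arrays per time). For AT4G15690 they were -8.55, -8.02, -9.62 and -9.13 (± 1.66) at 12, 24, 36 and 48 h against 0 h. For AT4G15700 they were -6.60, -7.48, -9.71 and -8.26 (± 1.33), and for AT3G62950 they were -7.23, -7.82, -7.76 and -7.12 (± 0.56). The standard errors order the genes as the later arrays in the plot of signals do, with AT3G62950 the most even and AT4G15690 the least. At 0 h AT3G62950 was the least even for its level, with a standard deviation of 91.4 on a mean of 189. AT4G15690 had 218 on 1055 and AT4G15700 had 130 on 1088. The evenness of AT3G62950 thus lies in its later arrays, all under the cutoff. All 12 later arrays of AT4G15700 and 11 of the 12 of AT4G15690 were under it too. Why AT3G62950 was the most even was not tested.

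These sizes rest on later signals that are too dim to be measured well. With the later level set at the cutoff of 30.7, the fall was at least 33.9-fold for AT4G15690, at least 35.3-fold for AT4G15700 and at least 5.54-fold for AT3G62950, from geometric means of 1040.3, 1083 and 170.2 at 0 h. The cutoff is not a limit of detection, and no detection calls were used. With 16 added to every signal before taking log2, the changes were -5.34 to -5.92 for AT4G15690 and -3.43 to -3.49 for AT3G62950, and -5.22 to -5.93 for AT4G15700 at 24 to 48 h.

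Among the 17829 probe sets kept, ranked from the lowest change upward, AT4G15690 stood at rank 7, 8, 3 and 8 at 12, 24, 36 and 48 h. AT4G15700 stood at rank 37, 16, 2 and 19, and AT3G62950 at rank 12, 12, 23 and 56. These ranks are what the genes were chosen by. For scale, 21.9%, 22.2%, 23.9% and 23.7% of all probe sets kept were called lower at these times (limma, Benjamini-Hochberg adjusted p under 0.05). In 17% of them all later arrays lay below all 0 h arrays, and in 1.85% every later mean was also below the cutoff, a set that holds all 3 genes. Each gene passed the filter through 0 h alone, so it had to differ from 0 h to be kept.

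**Figure D2:**
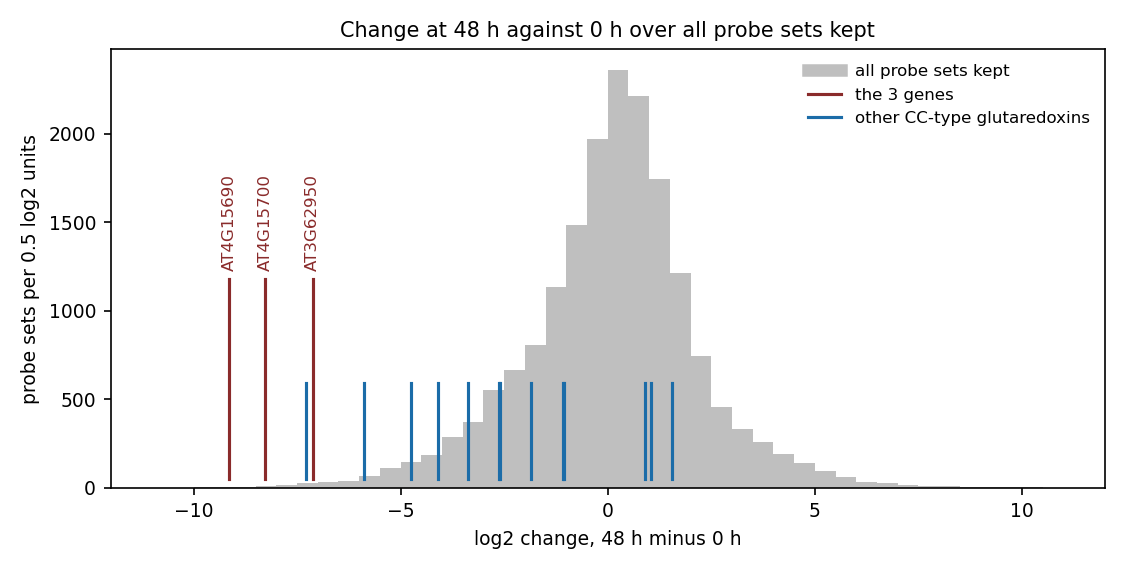
Number of probe sets (grey bars, 0.5 log2 units wide) by log2 change at 48 h minus 0 h over the 17829 probe sets kept; tall lines mark AT4G15690 (-9.13), AT4G15700 (-8.26) and AT3G62950 (-7.12), which were chosen for low values, and short lines the 13 other CC-type glutaredoxins kept. The 3 genes lie at the far left, and the other family members spread from -7.28 to 1.55.

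Whether the 3 genes moved again after 12 h was not part of their choice, although the later arrays also entered the contrasts that chose them. Of 12 tests (3 genes at 24 h against 12 h, 36 h against 24 h, 48 h against 36 h and 48 h against 12 h), limma called 0, with adjusted p between 0.383 and 1.00, and 0 had an unadjusted p under 0.05. Over all probe sets kept, 0.993% were called higher and 0.241% lower at 24 h against 12 h, 0.112% higher and 0% lower at 36 h against 24 h, 0% either way at 48 h against 36 h, and 16.5% higher and 9.87% lower at 48 h against 12 h. The largest of these differences was that of AT4G15700 at 36 h against 24 h, -2.23 ± 1.33 on the log2 scale (adjusted p = 0.565), with geometric means of 1.30 at 36 h and 6.08 at 24 h. The means of both times lie under the cutoff in all 12 tests, so the order of the later levels cannot be read for any of the 3 genes, and the tests do not show that those levels were alike.

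Other CC-type glutaredoxins fell as well, but not all of them. Of 18 listed family genes other than the 3, 14 were paired with a probe set and 13 passed the filter. AT5G11930 did not pass, with 1.23 to 42.5 over the 15 arrays. AT3G62960 and AT3G62930 passed through 0 h alone and so had to differ from it, and they are left out of the counts here. Of the other 11, 4 fell and 1 rose at 12 h against 0 h, 5 fell at 24 h, 6 fell at 36 h and 7 fell at 48 h, and 0 rose at the last 3 times, beside the lower shares over all probe sets given above and 23.7%, 27.4%, 32.3% and 33.3% called higher. Their median log2 changes were -1.14, -1.32, -1.82 and -2.62, beside -0.03, 0.07, 0.18 and 0.22 over all probe sets kept. The family is taken from general knowledge, and all these contrasts share the 0 h arrays with those that chose the 3 genes.

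**Figure D3:**
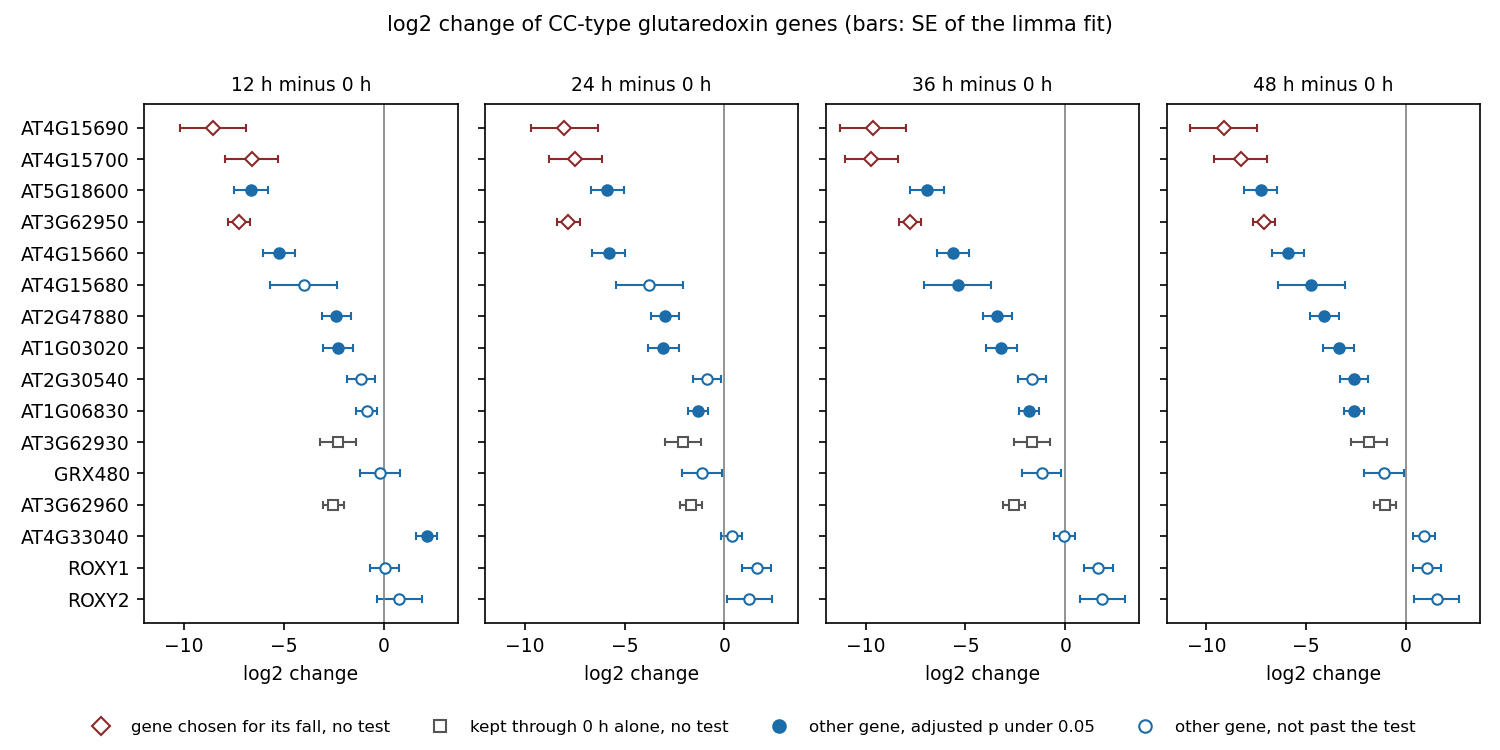
log2 change against 0 h at 12, 24, 36 and 48 h for the 16 CC-type glutaredoxin genes kept, in the order of their change at 48 h (points, with standard errors of the limma fit over 15 arrays). Open diamonds are the 3 genes chosen for their fall, open squares AT3G62960 and AT3G62930, kept through 0 h alone, filled circles other genes at an adjusted p under 0.05 and open circles those that missed it; AT4G33040 at 12 h (2.14) is the only filled circle right of 0.

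AT5G18600 had the largest fall among the family genes that were not chosen for it. Its signals were 100.8, 21.4 and 80.7 at 12 h and 99.2, 29.9 and 16.1 at 48 h, against 4692, 7890.6 and 4832 at 0 h. The log2 change was -6.66 ± 0.84 at 12 h (limma adjusted p = 4.16e-05) and -7.28 ± 0.84 at 48 h (adjusted p = 1.69e-05), with no overlap between the arrays of either time and those of 0 h. At 24 and 36 h it stood at -5.87 and -6.92.

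The loci next to AT4G15690 and AT4G15700 are also CC-type glutaredoxins, in a row from AT4G15660 to AT4G15700 in the gene table. AT4G15660 had 51.3, 15.97 and 18.6 at 48 h, against 1429.9, 1827 and 1207 at 0 h, a log2 change of -5.89 ± 0.80 (limma adjusted p = 6.26e-05). It was at -5.23 at 12 h, -5.81 at 24 h and -5.62 at 36 h, all called. AT4G15680 had 140.2, 24.4 and 2.997 at 48 h, against 287, 632 and 1087 at 0 h. Its change of -4.74 ± 1.67 passed the test (adjusted p = 0.0283), but not when replicate 2 or 3 of 0 h (-4.68 and -4.29) or replicate 2 or 3 of 48 h (-4.83 and -3.31) was left out. At 36 h it was called at -5.37, but not without 0 h replicate 3 (-4.92) or 36 h replicate 3 (-3.38), and at 12 and 24 h, at -4.01 and -3.78, it was not called (adjusted p = 0.0682 and 0.0792). The 12 h value was called with the offset of 16 (-3.52, adjusted p = 0.00505) and without 36 h replicate 1 or 3. It was also called with the replicate number added to the fit (limma adjusted p = 0.0176). That fit leaves out 36 h replicate 3 as well, so this call cannot be credited to the replicate number alone. The geometric means of AT4G15660 at 24, 36 and 48 h (26.2, 29.8 and 24.8) lie under the cutoff of 30.7. So do those of AT4G15680 at 36 and 48 h (14.0 and 21.7), so the sizes of these falls are uncertain. AT4G15670, between AT4G15660 and AT4G15680, is not analysed here. Genes in such a row can be alike in sequence, and whether probes of one also bind transcripts of another was not tested.

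Of the genes just outside the glutaredoxin row, AT4G15650 and AT4G15710 on either side did not pass the filter. AT4G15730, farther along, was kept and changed by -0.39 ± 0.32 at 48 h (limma adjusted p = 0.316). Beside AT3G62950 lie 2 more CC-type glutaredoxins, AT3G62930 and AT3G62960, which passed the filter through 0 h alone and are described here without a test. AT3G62960 had 6.72 to 10.2 at 12 h and 19.6 to 23.5 at 48 h, against 34.2 to 78.4 at 0 h, with log2 changes of -2.52 at 12 h and -1.06 at 48 h. AT3G62930 had log2 changes of -2.30 at 12 h and -1.85 at 48 h, with 0 h signals of 51.9, 31.3 and 402. Its values rest on the third 0 h array, without which they were -1.19 and -0.74.

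Of the measured neighbours of AT3G62950 that are not glutaredoxins, AT3G62920 rose at 48 h (0.80 ± 0.27, limma adjusted p = 0.0232). That call was lost without 48 h replicate 2 (0.62) or 0 h replicate 3 (0.68), and with each array centred on its median (0.58) or quantile normalization (0.63). The mean of AT3G62920 was highest at 12 h, when it had 223 to 327, against 94.9 to 132 at 0 h. AT3G62890, AT3G62970 and the gibberellin receptor gene GID1B did not pass the test at 48 h (0.45 ± 0.34, -0.24 ± 0.30 and 0.39 ± 0.27). Without 0 h replicate 1, AT3G62890 was called at 48 h (0.82). At 12 h, GID1B had 647 to 806, against 231 to 367 at 0 h (1.45 ± 0.27, limma adjusted p = 7.19e-04), and AT3G62890 had 84.2 to 92.2, against 22.6 to 64.0 at 0 h (1.22 ± 0.34, adjusted p = 0.0109).

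A further 4 family genes fell more gradually or by less. AT2G47880 had 16.8, 24.6 and 30.8 at 48 h, against 126.4, 252 and 1958 at 0 h, with log2 changes of -2.37, -2.97, -3.40 and -4.09 (± 0.71) at 12, 24, 36 and 48 h, all called. Its 0 h level rests on 1 array: without 0 h replicate 3 the first 3 changes were -1.22, -1.82 and -2.25, each still called. AT1G03020 was at -3.36 ± 0.77 at 48 h (limma adjusted p = 0.00252), and at 12 h its change of -2.29 was called. Leaving out 0 h replicate 1 (-1.65), 12 h replicate 2 (-2.01) or 12 h replicate 3 (-2.25) ended the 12 h call. The geometric means of AT1G03020 at 24, 36 and 48 h (27.4, 24.9 and 22.3) and of AT2G47880 at 48 h (23.3) lie under the cutoff.

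AT1G06830 had 305.7, 302.7 and 150.6 at 48 h, against 543, 2120.2 and 2752 at 0 h. It did not pass the test at 12 h (-0.86 ± 0.51, adjusted p = 0.187) and was called at -1.32, -1.82 and -2.61 at 24, 36 and 48 h. The 12 h value was -1.58 and called without 0 h replicate 1 (adjusted p = 0.00340), and -0.41 without 0 h replicate 3. The 24 h call (adjusted p = 0.0461) was lost in 16 of the 21 alternatives, with values from -0.87 without 0 h replicate 3 to -1.50 without 24 h replicate 1. Between 12 and 48 h it fell further, by 1.75 ± 0.51 on the log2 scale (limma adjusted p = 0.0239), and this step missed the threshold when 12 h replicate 2 (-1.80), 12 h replicate 3 (-1.66) or 48 h replicate 3 (-1.41) was left out. AT2G30540 was called at 48 h only (-2.62 ± 0.70, adjusted p = 0.00697), with 392, 197.5 and 117.2 at 48 h against 535, 2170.8 and 1803 at 0 h. The lowest signal over the 15 arrays was 150.6 for AT1G06830 and 117.2 for AT2G30540.

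GRX480, ROXY1, ROXY2 and AT4G33040 had no fall called in the fit of group means. GRX480, a glutaredoxin known to respond to salicylic acid and to restrain jasmonate responses, had 326, 1307 and 2055 at 48 h, against 1090.2, 2580.6 and 2958 at 0 h. Its change was -1.08 ± 1.00 at 48 h (limma adjusted p = 0.372) and -0.19 at 12 h (adjusted p = 0.891), with overlapping arrays at both times. Its arrays ranked alike by replicate number at 0, 12 and 48 h, so the overlap and the standard error include differences between replicates. Its 48 h signal was below the 0 h signal of the same replicate number for all 3 numbers. With the replicate number added to the fit, the 48 h change was called (limma adjusted p = 0.0154). Without 48 h replicate 1 the 48 h change was -0.31. ROXY1, known from petal development, changed by 1.05 ± 0.72 and ROXY2, known from anther development, by 1.55 ± 1.12 at 48 h (adjusted p = 0.230 and 0.256). ROXY1 had 247, 43.0 and 44.6 at 48 h, and its change was 0.22 without the first of these arrays. ROXY2 ranged from 0.82 to 2.63 at 48 h with 1 array left out. AT4G33040 had 385, 404 and 985 at 12 h, against 209, 93.5 and 90.8 at 0 h, and rose by 2.14 ± 0.53 on the log2 scale (adjusted p = 0.00560). At 24, 36 and 48 h it was at 0.36, -0.05 and 0.91 and was not called.

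**Figure D4:**
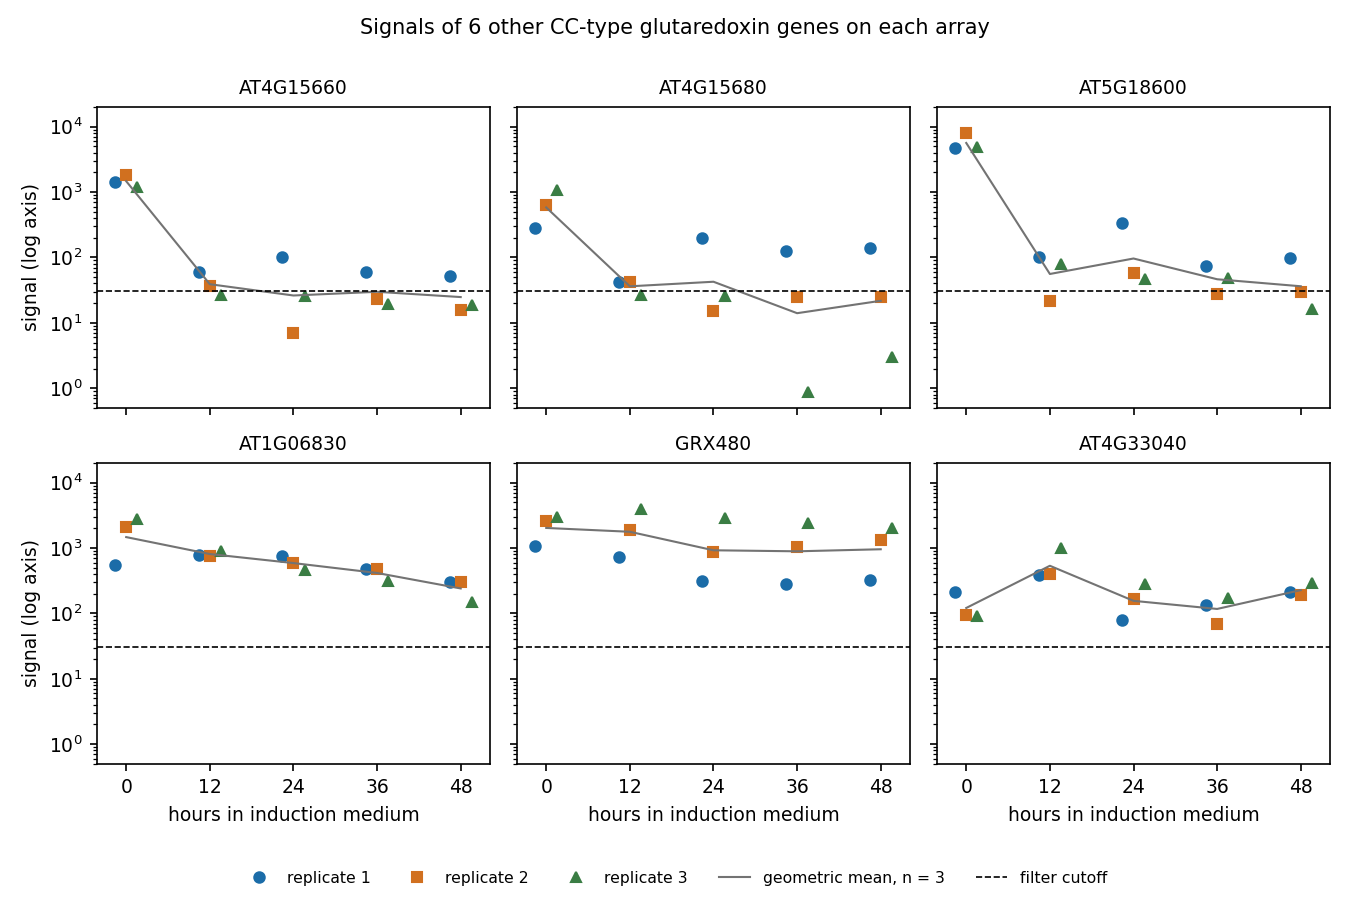
Signal (log axis) of 6 other CC-type glutaredoxin genes on each of the 15 arrays against hours in induction medium, with symbols, lines and cutoff as in the plot of the 3 chosen genes. AT4G15660, AT4G15680 and AT5G18600 drop between 0 and 12 h, AT1G06830 declines to 150.6 to 305.7 at 48 h, GRX480 spans 277 to 3941 over the arrays and AT4G33040 is highest at 12 h.

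The list of CPYC and CGFS types, which carry other active sites and act in disulfide reduction and in iron-sulfur cluster transfer, had 5 of 10 genes measured, all kept. At each of the 4 times 1 rose and 0 fell, with a median log2 change of 0.32 at 48 h. With 5 genes, these counts do not stand apart from the shares over all probe sets, 33.3% higher and 23.7% lower at 48 h. The gene that rose was AT5G20500, with 7846, 6987 and 6347 at 48 h, against 1882, 2203 and 2162 at 0 h (1.76 ± 0.19, limma adjusted p = 1.09e-05). It was already higher at 12 h (0.95) and rose further between 12 and 48 h (0.81 ± 0.19, adjusted p = 0.00851), a step not called with each array centred on its median (0.54).

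The enzymes that regenerate reduced glutathione, the electron donor of glutaredoxins, went in opposite directions. GR1, a glutathione reductase known from the cytosol, had 2254, 3641 and 2988 at 48 h, against 1507, 1330.2 and 777 at 0 h, and rose at all 4 times, most at 12 h (2.69 ± 0.27, limma adjusted p = 8.10e-06) and least at 48 h (1.33 ± 0.27, adjusted p = 0.00108). Between 12 and 48 h it fell by 1.37 ± 0.27 on the log2 scale (adjusted p = 0.00303). GR, the glutathione reductase known from plastids and mitochondria, had 758, 952 and 1092 at 48 h, against 3336, 2417 and 3021 at 0 h, and fell at all 4 times (-1.65 ± 0.23 at 48 h, adjusted p = 6.80e-05). These were 2 of 11 listed genes of the glutathione and thioredoxin system.

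Few genes of the pathways tied to this family could be looked up. Of 17 listed nitrate genes, 1 was measured: AT1G68670 had 617, 542 and 405 at 48 h, against 2823, 1815 and 2357 at 0 h, and fell at all 4 times (-2.16 ± 0.35 at 48 h, limma adjusted p = 2.29e-04). Of 10 listed cytokinin response regulators of type A, 2 were measured and 0 were called at 48 h. ARR15 was at 2.24 ± 0.99 at 48 h (adjusted p = 0.0715), but at 0.74 without 0 h replicate 1 and at 3.52, called, without 0 h replicate 3. It was called higher at 12 h (2.62, adjusted p = 0.0470), a call lost in 17 alternatives. RR16 was called lower at 24 h (-1.98, adjusted p = 0.0213), a call lost in 4. Of 5 listed defence genes that glutaredoxins of this class are known to repress, PDF1.2 and PDF1.2b were measured. PDF1.2 fell at 48 h (-3.90 ± 1.04, adjusted p = 0.00660), with arrays that overlapped those of 0 h. Its calls at 24 h (-2.80) and 36 h (-3.17) were lost in 10 and 4 alternatives. PDF1.2b was not called at 48 h (-2.93 ± 1.93, adjusted p = 0.212), with values from -6.00, called, without 0 h replicate 3 to -1.01 without 0 h replicate 1. At 0 h PDF1.2 had 3909, 935 and 80.0 and PDF1.2b had 3510, 1235 and 3.49. Whether probes of one also bind transcripts of the other was not tested, so they may not be separate measures. None of the 10 TGA factors, 5 TOPLESS corepressors and 9 salicylic acid genes listed was paired with a probe set, and they are not analysed here.

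The genes whose profiles lay nearest to the 3 were found from the root mean square difference of log2 signals, centred per gene, over the 15 arrays, among 9964 probe sets with a locus. This likeness includes the fall from 0 h and is a description. Nearest to AT4G15690 were AT5G18600 (1.53), AT1G62510 (1.76) and AT4G15660 (1.87), so 2 of its 3 nearest are family members, while its distance to AT4G15700 was 2.23. The median distance over all probe sets kept was 4.12. Nearest to AT4G15700 were AT1G75460 (1.64), AT5G18600 (1.73) and the light-harvesting gene LHCB4.2 (1.80), with a median of 3.77. Nearest to AT3G62950 were AT1G51400 (0.92), AT5G02160 (0.95) and AT2G29290 (0.96), with a median of 3.17. At 48 h against 0 h, these genes outside the family had log2 changes from -8.28 (AT1G62510) to -6.36 (AT2G29290).

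Each measured marker of mesophyll, phloem and guard cells was lower at 48 h than at 0 h, but not all had clearly fallen by 12 h. LHCB4.2, 1 of 10 listed mesophyll markers that was measured, had 151.4 to 352 at 48 h, against 18524 to 37628 at 0 h. SWEET11, 1 of 6 for phloem, had 636 to 1063 at 12 h and 37.4 to 72.6 at 48 h, against 4996 to 7768 at 0 h. The summed signal of 3 of 5 guard cell markers was 559.9 to 1205 at 48 h, against 5797 to 13192 at 0 h. Of these 3, AT1G22690 made up most of the sum at 0 h (4861 to 10587). FMA had 208 to 428 at 12 h, overlapping its 338 to 510 at 0 h, and 78.0 to 161 at 48 h. IRX15, 1 of 8 for xylem, had 675 to 842 at 48 h, against 4.17 to 11.4 at 0 h. None of the 5 epidermis markers was measured, and no measured marker was at 0. Their part in the fall of the 3 genes was not tested.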

How the data were processed

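Each deposited value is a linear-scale intensity for 1 probe set on 1 array. The authors made it with GCOS and MAS5, as named in the submitters' notes, with no version given. Each array had a common mean of 500.0 to 500.1 after trimming 2% at each end. Controls (64 probe sets) were left out, log2 was taken with no offset, and probe sets were kept where the highest of the 5 geometric group means reached 30.7, percentile 30 of the group means of all probe sets and times. limma 3.58.1 in R 4.3.3 fitted 5 group means over 15 arrays (10 residual degrees of freedom), two-sided, adjusted by Benjamini-Hochberg over all probe sets kept; the fit was tested on simulated data. Genes were named through the platform annotation and the TAIR10.1 gene table, used for names and neighbours only: 13513 probe sets had 1 gene, 503 several and 8730 none listed, and 13436 matched a locus.

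The genes, family and lists were chosen with earlier results of these data known. Named genes were the 3 genes, every measured family gene, up to 3 per other list by change at 48 h, 3 nearest profiles each and 3 measured neighbours on each side. Same-numbered arrays of later times deviated together (r = 0.126 to 0.496 over 15 pairs), while pairs with 0 h gave 0.014 to 0.135; the array of 36 h without a number was left out of the block. Alternatives were an offset of 16, median centring, quantile normalization, no filter or percentile 50, each array left out, and the replicate block.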

Additional observations from a re-analysis of the deposited data

How the results depend on the processing

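With 16 added to the signals, the changes of AT4G15690 at 12, 24, 36 and 48 h were -5.62, -5.34, -5.92 and -5.57, those of AT4G15700 at 24, 36 and 48 h -5.22, -5.93 and -5.78, and those of AT3G62950 -3.45, -3.49, -3.48 and -3.43. With 1 array left out, AT4G15690 lay between -10.98 and -7.12 over the 4 times and AT3G62950 between -8.32 and -6.54, and AT4G15700 at 24 h between -8.52 and -5.52. All changes of the 3 genes against 0 h kept their sign in all 21 alternatives. The genes were chosen for these falls, and their later arrays lay far below all 0 h arrays. The sign was thus fixed by the choice and lends the falls no support.

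None of the steps between later times was called in any of 252 alternative values, and 19 changed sign. The later means all lie under the cutoff, so the lack of calls does not show that the later levels were alike. The offset gave 0.045 for AT4G15690 at 48 h against 12 h and 0.10 for AT4G15700 at 24 h against 12 h. Median centring gave -0.027 for AT3G62950 at 36 h against 24 h and -0.16 at 48 h against 12 h, and the replicate block gave -0.22 for the first of these. With 1 array left out, the steps of AT4G15690 ranged from -1.19 to 1.88 (24 h against 12 h), -2.50 to 0.13 (36 h against 24 h), -1.37 to 1.56 (48 h against 36 h) and -2.43 to 0.77 (48 h against 12 h). AT4G15700 at 24 h against 12 h ranged from -1.92 to 1.08, and AT3G62950 from -0.17 to 0.47 (36 h against 24 h) and -0.37 to 0.69 (48 h against 12 h).

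The replicate numbers paired later arrays with those of 0 h only weakly (r = 0.014 to 0.135). The replicate block, which leaves out 36 h replicate 3, called GRX480 at 48 h (-1.08) and AT4G15680 at 12 h (-4.01). Leaving out that array without the block also called AT4G15680 at 12 h. The block lost the calls of AT1G06830 at 24 h (-1.32) and 36 h (-1.62), ARR15 at 12 h (2.62) and PDF1.2 at 24 h (-2.80). Of the 13 family genes kept, those called higher numbered 1 at 24 h with the replicate block, and 0 to 1 at 24 and 36 h with 1 array left out. Of the related genes, 2 to 4 were called lower at 12, 24 and 36 h with 1 array left out. Of 1857 alternative values for single genes, 75 lost the call, 21 gained it and 12 changed sign. The changes of sign were in ROXY1 at 12 h (-0.021 with the offset, -0.57 to 0.46 with 1 array left out), and, with 1 array left out, in GRX480 at 12 h (-0.77 to 0.44), GRXC1 at 48 h (-0.48 to 0.10), AT1G77370 at 12 h (-0.41 to 0.22) and 48 h (-0.48 to 0.15), RR16 at 48 h (-1.05 to 0.17) and PDF1.2b at 12 h (-3.71 to 1.28). The causes were not tested. Signals under the cutoff limit every size given for the 3 genes. They also limit the falls of AT4G15660, AT4G15680, AT1G03020 and AT2G47880 at the times whose means lie under it. The same holds for AT1G62510, AT1G75460 and AT2G29290 among the nearest profiles.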

Other observations

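Within the later times, the array of replicate 1 was the highest of its 3 arrays in 43 of 68 cases over the 17 CC-type glutaredoxins with a probe set (63.2%), beside 36.4% over all probe sets kept. AT4G15690, AT4G15660, AT4G15680, AT5G18600, AT1G03020 and AT2G30540 had their highest array in replicate 1 at all 4 later times, and GRX480 and AT4G33040 at none. At 24 h, AT5G18600 had 331.5 in replicate 1 and 58.5 and 46.1 in the other two, and AT4G15660 had 101.8 in replicate 1 and 6.94 and 25.4 in the others. These counts were chosen after the values were seen.

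GRX480 ranked the 3 replicate numbers alike at 0, 12, 24 and 48 h, the 4 times at which every array carries a number, with replicate 1 lowest and replicate 3 highest. One order at all 4 times was found for 2.41% of the probe sets kept, and for no other of the 17 family genes.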
